A study of Mus musculus with 16 samples.

Results

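The axon guidance ligands and receptors are the semaphorins of classes 3 to 7, slits, netrins and ephrins, with their receptors, the plexins, roundabouts (Robo), Unc5 proteins and Eph kinases. Their members were set by a rule on gene symbols, and 66 of the 55487 genes of the count matrix matched. The 66 comprised 20 semaphorins, 14 Eph kinases, 9 plexins, 8 ephrins, 4 netrins, 4 roundabouts, 4 Unc5 receptors and 3 slits. Each had at least 1 UMI (a molecule counted by its tag), and they held 174829 UMIs together. In 57 of them a UMI was seen in every mouse used, and 5 had fewer than 100 UMIs in all.

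The data are single-cell RNA counts from mouse spinal cord after a dorsal column lesion at C5, from a study that asked how astrocytes lacking the Wnt receptor Ryk alter the response to injury. There were 8 conditions of 2 mice, and each mouse gave 1 library. The cKO mice were Rykfl/fl,GFAPcreERT2 and the WT mice were Ryk+/+,GFAPcreERT2. Cells were taken from uninjured mice and at 1, 7 and 14 d after injury. Both genotypes carried the same tamoxifen-inducible Cre recombinase, driven by the Gfap promoter that is active in astrocytes, and all were treated with tamoxifen. The mice were 8-10 weeks old, and the labels also call the uninjured mice sham. In the text below a mouse is named by its condition and its replicate number, 1 or 2, and the table of cells gives this same number as the batch of each mouse.

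Guidance cues steer growing axons by attraction or repulsion. Semaphorins act through plexins, the secreted class 3 mostly with neuropilins as co-receptors, while slits repel through Robo receptors and netrins attract through Dcc or repel through Unc5 receptors. Ephrins and Eph kinases sit on the surfaces of touching cells and can signal in both directions. In the adult spinal cord glia, vessel cells and the fibroblasts of scars make several of these cues, which are known for blocking the regrowth of axons and for shaping blood vessels.

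Several libraries stood apart. WT 1 d mouse 2 had 1 cell and was left out, which left 15 mice with 208 to 1845 cells and 536263 to 9008729 UMIs each. The median cell held between 414 UMIs in WT 1 d mouse 1 and WT 7 d mouse 1 and 3637 UMIs in WT 14 d mouse 2. Animal numbers fell into a series under 10000, which held mouse 1 of the uninjured, 1 d and 7 d conditions, and a series of 10000 or more, which held mouse 2 of those conditions and all 14 d mice. In 6 mice the cell names carried a condition other than that of the sample titles. The table of cells gave the condition of the titles for all 16 mice, and that condition was used. Of 17937 barcode sequences, 165 (0.92%) occurred in more than 1 mouse.

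The authors' 17 clusters are named here by number with the authors' label. Lists of marker genes were highest, relative to the mean over clusters, where the label would place them for endothelial cells (8.84 times in Cluster 1), neurons (9.11 times in Cluster 3), microglia (8.44 times in Cluster 6 and 5.31 in Cluster 10), pericytes and smooth muscle (14.3 times in Cluster 9) and oligodendrocyte precursors, or OPCs (12.6 times in Cluster 11). The same held for oligodendrocytes (5.62 times in Cluster 8 and 3.79 in Cluster 4), fibroblasts (11.8 times in Cluster 14), Schwann cells (15.7 times in Cluster 15) and red blood cells (16.7 times in Cluster 17). Cluster 16, labelled myeloid, was highest for the neutrophil list (15.9 times), Cluster 12, labelled immuno, for the immune list (10.1 times), and the unlabelled Cluster 13 for the ependymal list (16.2 times). The astrocyte list was highest in Cluster 5 (5.86 times) and Cluster 7 (4.44 times). Cluster 2 carries an astrocyte label, and of the marker lists the astrocyte list was the highest there, at 2.83 times. Its leading genes were neuronal and mitochondrial, among them Nefh and Nefl, so it is called only Cluster 2.

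Ryk, the targeted gene, was measured in the astrocyte Clusters 5 and 7 together, as CPM, the count per 1000000 UMIs of those cells in a mouse. In uninjured mice it was 126 and 70.1 CPM in WT and 68.9 and 116 CPM in cKO. After injury the WT mice had 103 CPM at 1 d, 169 and 131 CPM at 7 d, and 115 and 112 CPM at 14 d. The cKO mice had 24.0 CPM (1 UMI) and 79.0 CPM at 1 d, 94.0 and 126 CPM at 7 d, and 136 and 135 CPM at 14 d. The genotypes overlapped, and in edgeR the cKO mice differed from WT after injury by 0.35 ± 0.41 (log2 fold change ± SE, adjusted p = 1.00) in Cluster 5 and by -0.13 ± 0.26 in Cluster 7. Where the floxed part of Ryk lies relative to the counted 3′ tags is not given, and a tag outside the deleted part would remain.

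Levels are CPM per mouse and cluster, for mice with at least 10 cells of that cluster, given as mean ± SD over mice. They describe where each gene was found, with no test, because the authors formed the clusters from the same values. Levels are compared between clusters and never between genes. A value of 0 allows up to 3 UMIs, and intervals and floors cover counting error only.

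Among the secreted class 3 semaphorins, Sema3c, which signals through neuropilins and plexins, led in the endothelial Cluster 1. Its level there ran from 519 through a median of 1055 to 1288 CPM in 15 mice (mean 951 ± 248), and exceeded that of the pericyte Cluster 9 (334 ± 123) in 15 of 15 mice. The 8 endothelial markers summed to 18150 CPM in Cluster 1 and to 6906 CPM in Cluster 9, so RNA of endothelial markers was present there too, and its part in the Cluster 9 levels was not tested. Sema3g, another secreted semaphorin of vessels, also led in Cluster 1 at 84.7 ± 43.2 CPM and was next highest in Cluster 9 at 54.1 CPM. Sema3a, the classic growth cone repellent, was low throughout and led in the neuronal Cluster 3 at 33.6 ± 19.1 CPM. It was higher there than in Cluster 13 in 6 of 10 mice. Sema3d led in OPC Cluster 11 at 463 ± 182 CPM (n = 14) and was above the fibroblast Cluster 14 in 9 of 9 mice. Sema3e, which binds Plxnd1 without a neuropilin, was highest in Cluster 13 at 74.8 ± 45.7 CPM (n = 10). Sema3b stood at 610 ± 235 CPM in the Schwann cell Cluster 15 (n = 5) and at no more than 21.4 CPM in any other cluster. Sema3f, a ligand that acts through Nrp2, did not reach 20 CPM in any cluster.

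The membrane-bound semaphorins were spread over glia and vessels. Sema4d, the ligand of Plxnb1, ran from 228 through 684 to 941 CPM in the oligodendrocyte Cluster 8 (n = 14) and was next highest in the other oligodendrocyte cluster, Cluster 4, at 409.7 CPM. It reached 204 ± 38.4 CPM in microglial Cluster 6 and 185 ± 85.3 CPM in microglial Cluster 10. Sema6d was highest in the astrocyte Cluster 7, from 591 through 922 to 1238 CPM (n = 15), and above Cluster 5 in 11 of 14 mice. Sema6a, a transmembrane ligand of Plxna2 and Plxna4, led in Cluster 1 at 394 ± 137 CPM, with 274 ± 109 CPM in the oligodendrocyte Cluster 4 and 225 CPM in OPC Cluster 11. These 3 genes were thus read in different glial and vessel clusters, with wide ranges between mice. Sema7a, which is anchored in the membrane by a lipid and binds Plxnc1 and integrins, stood at 395 ± 91.6 CPM in Cluster 1 and exceeded Cluster 9 in 15 of 15 mice.

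Sema5a and Sema5b carry thrombospondin repeats and can attract or repel axons. Sema5b led in Cluster 11 at 231 ± 72.0 CPM, followed by Cluster 3 at 34.2 CPM, and was higher in Cluster 11 in 14 of 14 mice. Sema5a led in Cluster 15 at 685 ± 316 CPM (n = 5), and 436 ± 170 CPM was found in Cluster 11. Sema4b (92.5 ± 64.0 CPM) led in Cluster 7 and was next highest in the other astrocyte cluster, Cluster 5, at 33.1 CPM. Sema4a led in the myeloid Cluster 16 at 114 ± 110 CPM (n = 5), with 95.6 CPM in Cluster 7 and 67.1 CPM in Cluster 12. Sema4g was highest in Cluster 6 at 29.2 ± 19.97 CPM, Sema6b in neuronal Cluster 3 at 39.2 ± 28.2 CPM, and Sema6c in Schwann cell Cluster 15 at 125 ± 84.3 CPM.

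Slits repel axons that carry Robo receptors. Slit1 was found mainly in neurons, with 43.0 ± 24.95 CPM in Cluster 3 and 20.9 CPM in Cluster 11. Slit2 was high in Cluster 15 (47.8 to 731 CPM, n = 5, median 305) and in Cluster 14 (0 to 778 CPM, n = 9, median 254). Slit3 was spread over Cluster 15 at 260 ± 271 CPM, Cluster 9 at 224 ± 168 CPM and Cluster 3 at 208 ± 121 CPM, with overlapping values. Ntn1, the netrin that attracts through Dcc and repels through Unc5 receptors, led in Cluster 14 at 332 ± 194 CPM, followed by Cluster 11 at 229 ± 55.8 CPM and Cluster 9 at 173 ± 65.3 CPM. Ntn4, a netrin of basement membranes, led in the pericytes of Cluster 9 at 211 ± 126 CPM, ahead of Cluster 14 at 130 CPM. Its highest other cluster was the red blood cell Cluster 17 at 41.1 CPM.

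Ephrins of class A are lipid-anchored and those of class B cross the membrane. Efna5 was 204 ± 133 CPM in Cluster 3 and 190 ± 118 CPM in Cluster 14, which overlapped. Efnb3 marked both oligodendrocyte clusters, with 454 ± 177 CPM in Cluster 8 and 362 ± 119 CPM in Cluster 4 against 44.9 CPM in Cluster 3, its next highest. Efnb2, known from arteries, was 50.6 ± 15.3 CPM in Cluster 1 and 43.7 ± 58.7 CPM in Cluster 14. Efnb1 was highest in Cluster 14 at 45.1 ± 29.1 CPM and stood at 23.3 ± 11.2 CPM in Cluster 1.

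Of the receptors, Robo1 was read across neurons and the oligodendrocyte lineage at levels that overlapped: Clusters 11 (687 ± 305 CPM), 3 (665 ± 337 CPM), 8 (539 ± 328 CPM) and 4 (539 ± 275 CPM). Robo2 led in Cluster 7, from 283 through 546 to 1088 CPM (n = 15), with 366 ± 217 CPM in Cluster 3 and 328 ± 131 CPM in Cluster 13. Robo4, the roundabout of endothelium, ran from 125 through 155 to 184 CPM in Cluster 1, a narrow range over 15 mice. Its next highest mean, 86.0 CPM in Cluster 17, rested on 3 UMIs in 1 mouse. Unc5c, a repulsive netrin receptor, had its highest means along the oligodendrocyte lineage, with 947 ± 334 CPM in the precursors of Cluster 11 and lower means in Cluster 4 (688 ± 248 CPM) and Cluster 8 (434 ± 240 CPM). Unc5b led in Cluster 4 at 217 ± 64.9 CPM, followed by Cluster 8 at 145 CPM, and was also read in the vessel Clusters 1 (80.4 ± 23.6 CPM) and 9 (83.9 ± 56.4 CPM). Unc5d was 230 ± 89.5 CPM in Cluster 3 and 125 CPM in Cluster 13.

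Plexins transmit semaphorin signals to the cytoskeleton. Plxna2 led in Cluster 1 at 365 ± 142 CPM, the cluster that also led for its ligand Sema6a, and reached 269 ± 171 CPM in Cluster 14. Plxna4 was 316 ± 97.0 CPM in Cluster 3 and 263 ± 119 CPM in Cluster 6. Plxnb1 led in the astrocyte Cluster 7 (164 ± 53.8 CPM), with 138 CPM in Cluster 15 (n = 5) and 135 ± 33.8 CPM in the other astrocyte cluster, Cluster 5. Plxnb2 was highest in the microglial Clusters 6 (186 ± 75.2 CPM) and 10 (151 ± 69.3 CPM). Plxnb3 followed the oligodendrocyte lineage, with 139 ± 51.1 CPM in Cluster 4, and 97.3 CPM in both Cluster 8 and Cluster 11. Plxnc1, the receptor of Sema7a, was 128 ± 112 CPM in Cluster 16 (n = 5) and 52.0 ± 37.4 CPM in Cluster 10. Plxnd1 was 102 ± 46.5 CPM in Cluster 1 and 89.7 ± 59.6 CPM in Cluster 12.

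Eph kinases divided between neurons, glia, vessels and fibroblasts. In Cluster 3, Epha10 stood at 155 ± 66.2 CPM against 29.7 CPM in Cluster 2, its next highest, and Ephb2 at 159 ± 64.7 CPM against 58.6 CPM in Cluster 11. Epha5 was read in Clusters 3 (262 ± 172 CPM), 11 (241 ± 113 CPM) and 7 (216 ± 73.0 CPM), which overlapped. Epha4, which binds ephrins of both classes, led in Cluster 7 (228 ± 70.6 CPM) and was 182 ± 45.7 CPM in Cluster 1. Ephb1 was 547 ± 220 CPM in Cluster 4 and 476 ± 230 CPM in Cluster 8. Ephb4, the partner of Efnb2 between veins and arteries, was 69.6 ± 17.0 CPM in Cluster 1, and Epha2 was 26.1 ± 20.9 CPM in Cluster 9. Ephb3 was 30.1 ± 25.3 CPM in Cluster 7 and 23.3 ± 27.8 CPM in Cluster 5. Epha3 (116 ± 77.4 CPM) and Epha7 (98.2 ± 93.8 CPM) led in Cluster 14.

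**Figure D1:**
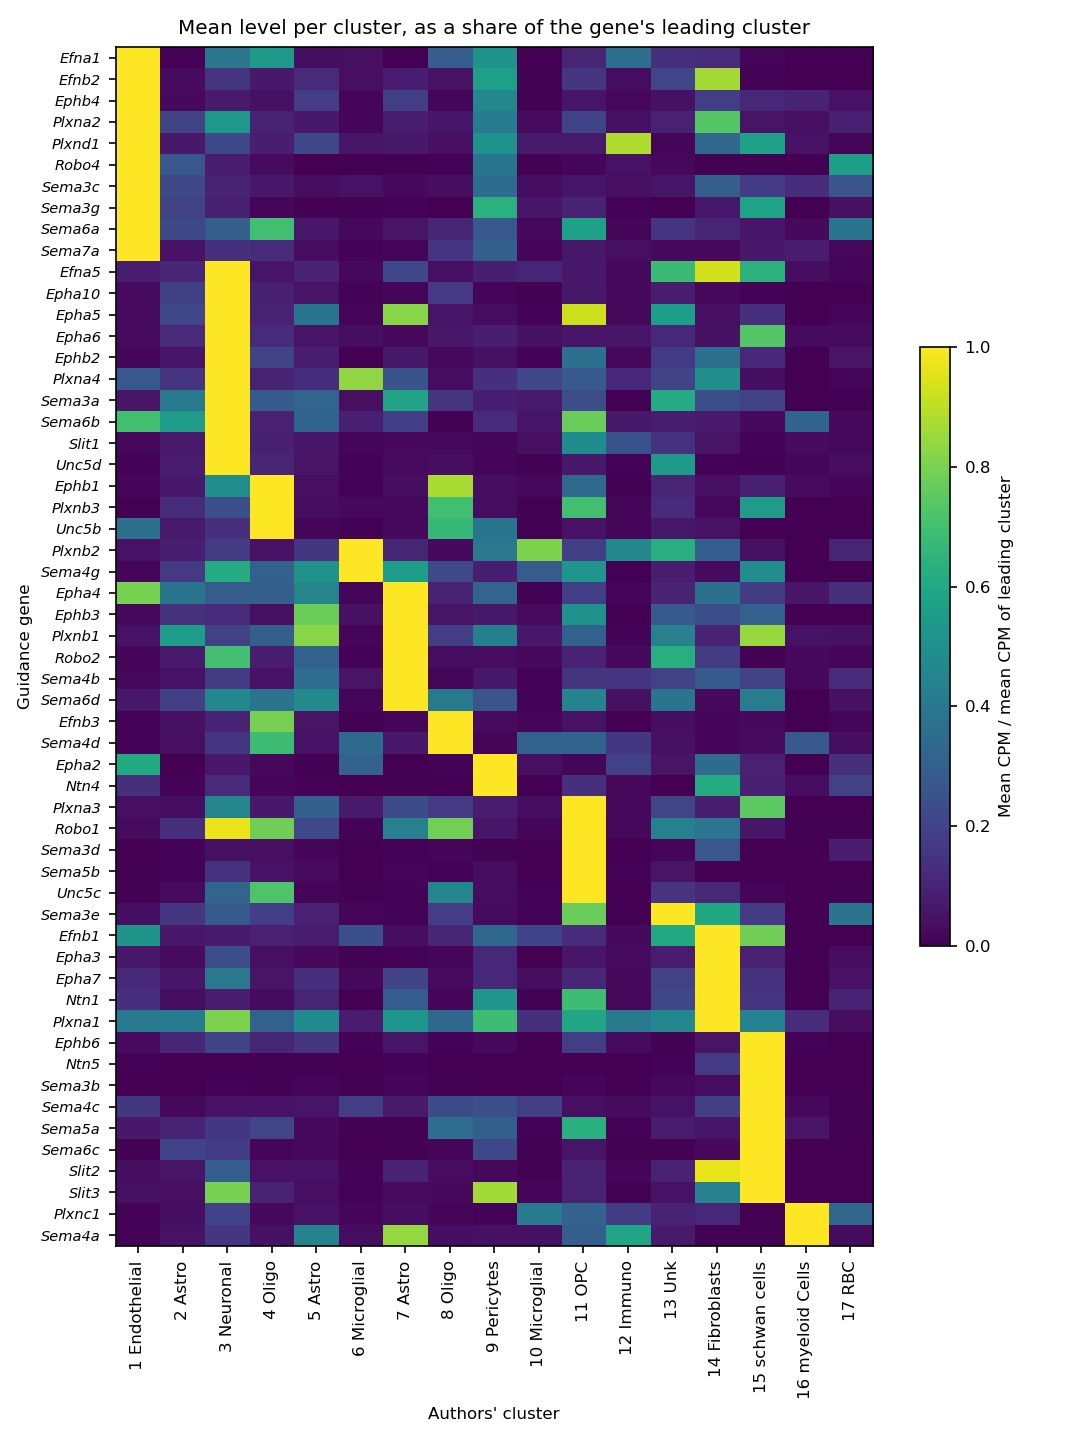
Mean CPM over mice of each guidance gene in each of the 17 clusters, as a share of the gene's leading cluster, for the 56 genes at 20 CPM or more there. Each gene is scaled to its own highest cluster, so brightness compares clusters and not genes. Sema3b is bright in Cluster 15, Sema5b in Cluster 11, and the endothelial Cluster 1 leads for 10 genes.

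By cluster, 40 of the 66 genes averaged 20 CPM or more in neuronal Cluster 3 and 31 in OPC Cluster 11, against 6 in microglial Cluster 6 and 7 in microglial Cluster 10. Cluster 3 led for 13 genes, Cluster 1 for 10 and Cluster 15 for 8. These leads varied in strength, and Epha8 and Robo3 led in Cluster 3 at only 3.61 and 5.14 CPM. Against the next highest cluster, Epha10 was higher in Cluster 3 in 11 of 11 mice, and Epha5 in 5 of 14. In Cluster 15, Sema3b was higher in 5 of 5 mice, but Slit2 and Slit3 each in 2 of 5. Few genes averaged 20 CPM or more in the microglial clusters, as in the myeloid Cluster 16 (6 genes) and in Cluster 12 (8 genes). No share over all genes is given beside these counts, so they do not set guidance genes apart from other genes. The clusters also differ in depth and in the number of mice. The genes with the highest ratio to the other clusters were Plxnb2, Sema4g and Plxna4 in Cluster 6, and Plxnb2, Plxnc1 and Sema4d in Cluster 10. In Cluster 12 the genes with the highest ratio to the other clusters were Plxnd1, Sema4a and Plxnb2, and in Cluster 16 they were Plxnc1, Sema4a and Sema4d. In Cluster 2 the highest ratio to the mean of the others was 2.25, for Sema6b. Some means there rested on few UMIs, such as Robo4 with 5 UMIs and Sema6c with 7 UMIs. In Cluster 17 Robo4, Plxnc1 and Sema3e ranked first with 3, 35 and 1 UMIs, and in Cluster 15 Ntn5 rested on 9 UMIs.

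To compare time points and genotypes, UMIs were summed per mouse and cluster and tested with edgeR over all genes, with an adjusted p of 0.05 as the threshold. Of the 66 genes, 51 passed the filter on low counts in at least 1 of 14 clusters, giving 199 of 924 possible gene and cluster pairs. The genes that passed do not stand for all 66, since the filter asks for counts in the clusters tested, and Sema3b and Sema6c led in a cluster with no test. The 15 below the filter everywhere were Efna2, Efna3, Efna4, Epha1, Epha8, Ephb6, Ntn3, Ntn5, Plxna3, Robo3, Sema3b, Sema3f, Sema4f, Sema6c and Unc5a. Clusters 15, 16 and 17 had too few mice for a test. The comparisons with uninjured mice were made in Clusters 1 to 11 (at 1 d without Cluster 2) and share at most 4 uninjured mice. In Clusters 2, 5, 6, 8, 10 and 11 there were 3, since cKO uninjured mouse 1 had fewer than 10 cells.

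With this design and filter, no guidance gene passed the threshold at 1, 7 or 14 d after injury in the 15 mice together, while a design with the number series and a fit with no filter, given further on, called 4 pairs and 1 pair at 14 d. At 1 d, 0 of 154 pairs in 10 clusters passed in edgeR, where 0.0709% of all gene and cluster pairs did. An unadjusted p under 0.05 was reached by 6 of the 154, or 3.9%, against 6.84% of all pairs, and DESeq2 also called 0 (0.343% of all). At 7 d, 0 of 167 pairs in 11 clusters passed in edgeR against 0.0562% of all, with 10 (5.99%) under an unadjusted 0.05 against 8.13% of all, and 0 in DESeq2 (0.216% of all). At 14 d, 0 of 167 passed in edgeR against 0.193% of all, with 9 (5.39%) under an unadjusted 0.05 against 9.04% of all, and 0 in DESeq2 (0.344% of all). The median log2 fold change of the guidance pairs was 0.08 at 1 d, 0.19 at 7 d and 0.19 at 14 d, beside 0.01, 0.03 and 0.05 for all pairs. More guidance pairs had a higher than a lower value at 7 d (68.3%, all pairs 51.8%) and at 14 d (68.9%, all pairs 54%), but the pairs share genes and the same uninjured mice. Without the 2 uninjured mice numbered 2, which differ in depth and markers as given further on, 53.4% of 133 guidance pairs in 5 clusters were higher at 7 d (all pairs 54.5%) and 58.6% at 14 d (all pairs 56.4%). That fit has fewer clusters as well as fewer mice, so which of these made the shares differ was not separated.

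The pair with the lowest p was Slit1 in neuronal Cluster 3 at 14 d. This and the other gene and cluster pairs whose time course or genotype difference follows were chosen after their values were seen. Slit1 lies on chromosome 19 from 41600257 to 41743665 on the minus strand (GRCm38). In uninjured mice it had 24.5 and 4.94 CPM (1 UMI) in WT mice 1 and 2 and 51.9 and 14.7 CPM (3 UMIs) in cKO mice 1 and 2. At 1 d it had 0 CPM in WT mouse 1, where the depth allows up to 396 CPM, and 64.2 (3 UMIs) and 44.4 CPM in the cKO mice. At 7 d the values were 44.6 (1 UMI) and 77.2 CPM in WT and 28.2 (1 UMI) and 39.0 CPM in cKO, and at 14 d they were 47.4 and 78.3 CPM in WT and 50.01 and 75.1 CPM in cKO. All 4 mice at 14 d were above the uninjured mean of 24.0 CPM, while 2 of the 4 lay below the highest uninjured mouse. The log2 fold change at 14 d was 1.48 ± 0.40 (SE, edgeR, adjusted p = 0.0748), and it was 1.16 ± 0.46 at 7 d (adjusted p = 0.47). Over the alternatives the log2 fold change ran from 0.08 to 2.22 at 7 d and from 0.76 to 2.64 at 14 d. The 14 d adjusted p of edgeR ran from 0.000284 to 1.00, and it passed the threshold without WT uninjured mouse 1 (2.11, adjusted p = 0.0468) and without cKO uninjured mouse 1 (1.87, adjusted p = 0.0456). In these edgeR fits without 1 mouse, 0.955% and 0.411% of all pairs passed at 14 d.

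Ephb2, a receptor for class B ephrins on chromosome 4 from 136647539 to 136835988 (minus strand), showed a like order in Cluster 3. Its uninjured values were 147 and 74.2 CPM in WT and 153 and 34.4 CPM in cKO. At 1 d it had 132 CPM (1 UMI) in WT mouse 1 and 257 and 127 CPM in cKO, at 7 d 134 (3 UMIs) and 194 CPM in WT and 254 and 112 CPM in cKO, and at 14 d 217 and 217 CPM in WT and 120 and 216 CPM in cKO. In 3 of the 4 mice at 14 d Ephb2 exceeded every uninjured mouse, and cKO 14 d mouse 1 lay among them. The log2 fold change at 14 d was 0.89 ± 0.33 (SE, edgeR, adjusted p = 0.195).

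In endothelial Cluster 1 the ligand Sema6a and its receptor Plxna2 were both read in every mouse. Sema6a had 336, 191, 422 and 203 CPM in the uninjured mice and 478, 233 and 158 CPM at 1 d. At 7 d it had 583, 544, 510 and 500.1 CPM, above all uninjured mice in 4 of 4, and at 14 d 437, 446, 427 and 443 CPM. The log2 fold change was 0.71 ± 0.24 at 7 d (SE, edgeR, adjusted p = 0.416) and 0.43 ± 0.24 at 14 d (adjusted p = 0.551). Plxna2, on chromosome 1 from 194618218 to 194816869 (plus strand), ranged in uninjured mice from 156 to 672 CPM, and at 7 d from 247 to 405 CPM, inside that range. Its log2 fold change was -0.09 ± 0.33 at 7 d and 0.08 ± 0.32 at 14 d in edgeR. Without WT uninjured mouse 1, at 672 CPM, the 7 d value was 0.45, and without cKO uninjured mouse 1 or cKO 7 d mouse 1 it was 0.09 or 0.06. At 14 d it was -0.18 without WT uninjured mouse 2 and -0.05 without cKO uninjured mouse 2.

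Also in Cluster 1, Sema3g was lower at 14 d in all 4 mice (81.9, 55.9, 51.5 and 57.9 CPM) than the uninjured mean of 108 CPM. That mean rested on cKO uninjured mouse 1 at 223 CPM, and the other 3 uninjured mice had 58.1 to 78.0 CPM. The log2 fold change was -0.84 ± 0.25 (SE, edgeR, adjusted p = 0.468). Plxnd1, a receptor of vessels for Sema3e, had 62.3 to 84.5 CPM in uninjured mice and 39.8 to 65.6 CPM at 1 d. At 7 d it had 44.6 to 169 CPM, a log2 fold change of 0.44 ± 0.30 that ran from 0.19 to 0.68 with each mouse left out. At 14 d Plxnd1 had 118 to 158 CPM, above every uninjured mouse in 4 of 4 (0.65 ± 0.29, edgeR, adjusted p = 0.498). Epha7 stood at 0 to 6.81 CPM uninjured and 11.4 to 29.7 CPM at 7 d, on 11 and 43 UMIs in all, and its log2 fold change of 1.71 ran from 1.20 to 3.92 over the alternatives. The netrin receptor Unc5b had 44.8 to 79.6 CPM at 1 d against 60.2 to 115 CPM uninjured. None of these 4 genes passed the threshold in Cluster 1 in the 15 mice.

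In oligodendrocyte Cluster 8 the receptors Unc5c and Robo1 shared a pattern among uninjured mice. Unc5c had 880.5 CPM in WT uninjured mouse 1 but 42.8 CPM (3 UMIs) in WT mouse 2 and 43.2 CPM (2 UMIs) in cKO mouse 2. After injury it ranged from 237 to 693 CPM at 1 d, from 384 to 616 CPM at 7 d and from 253 to 600 CPM at 14 d. Robo1 likewise had 1088 CPM in WT uninjured mouse 1 against 57.0 CPM (4 UMIs) and 64.8 CPM (3 UMIs), and 215 to 997 CPM at 14 d. Every injured mouse thus lay between the uninjured mice of replicate numbers 1 and 2 for both genes. The log2 fold change of Unc5c was 1.29 ± 0.77 at 7 d and 1.11 ± 0.76 at 14 d, and that of Robo1 at 14 d was 1.14 ± 0.81 (SE, edgeR, adjusted p = 0.479, 0.498 and 0.512). Without WT uninjured mouse 1 the value of Unc5c passed the threshold at 7 d (2.73, edgeR adjusted p = 0.0274, where 0.561% of all pairs passed) and at 14 d (2.56, adjusted p = 0.0338), and that of Robo1 at 14 d was 2.53 with no call. Over the alternatives the adjusted p of Unc5c ran from 0.00731 to 1.00 at 7 d and from 0.0024 to 1.00 at 14 d.

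Sema3c, so high in endothelial cells, was low in oligodendrocyte Cluster 4 and split by replicate number. It had 24.3 and 37.4 CPM (3 UMIs in the latter) in the uninjured mice numbered 1 and 168 and 115 CPM in those numbered 2. At 7 d the mice numbered 1 had 0 and 0 CPM, where the depth allows up to 44.8 and 17.5 CPM, and those numbered 2 had 108 and 82.4 CPM. At 14 d all 4 mice had 31.8 to 48.1 CPM, below both uninjured mice numbered 2 and near those numbered 1, and the log2 fold change was -0.996 ± 0.86 (edgeR). It was -1.65 without WT uninjured mouse 1, -0.09 without WT uninjured mouse 2 and -0.34 without cKO uninjured mouse 2. The summed level of the 8 endothelial markers in Cluster 4 was 1008 and 828 CPM in the uninjured mice numbered 2, 362 and 573 CPM in those numbered 1, and 86.8 to 429 CPM at 14 d, and its part in the Sema3c values was not tested. In astrocyte Cluster 7 Sema3c had 0 to 64.1 CPM in uninjured mice and 0 to 13.7 CPM at 7 d, on 19 and 11 UMIs. The uninjured mice numbered 1 had 0 UMIs there. Its values in Cluster 7 were 0 to 103 CPM at 1 d and 22.7 to 53.2 CPM at 14 d. Its log2 fold change of -1.71 at 7 d was -2.49 without WT uninjured mouse 1, 1.05 without WT uninjured mouse 2 and 1.66 without cKO uninjured mouse 2. In Cluster 3 it had 69.2 to 162 CPM uninjured and 65.9 to 120 CPM at 14 d.

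**Figure D2:**
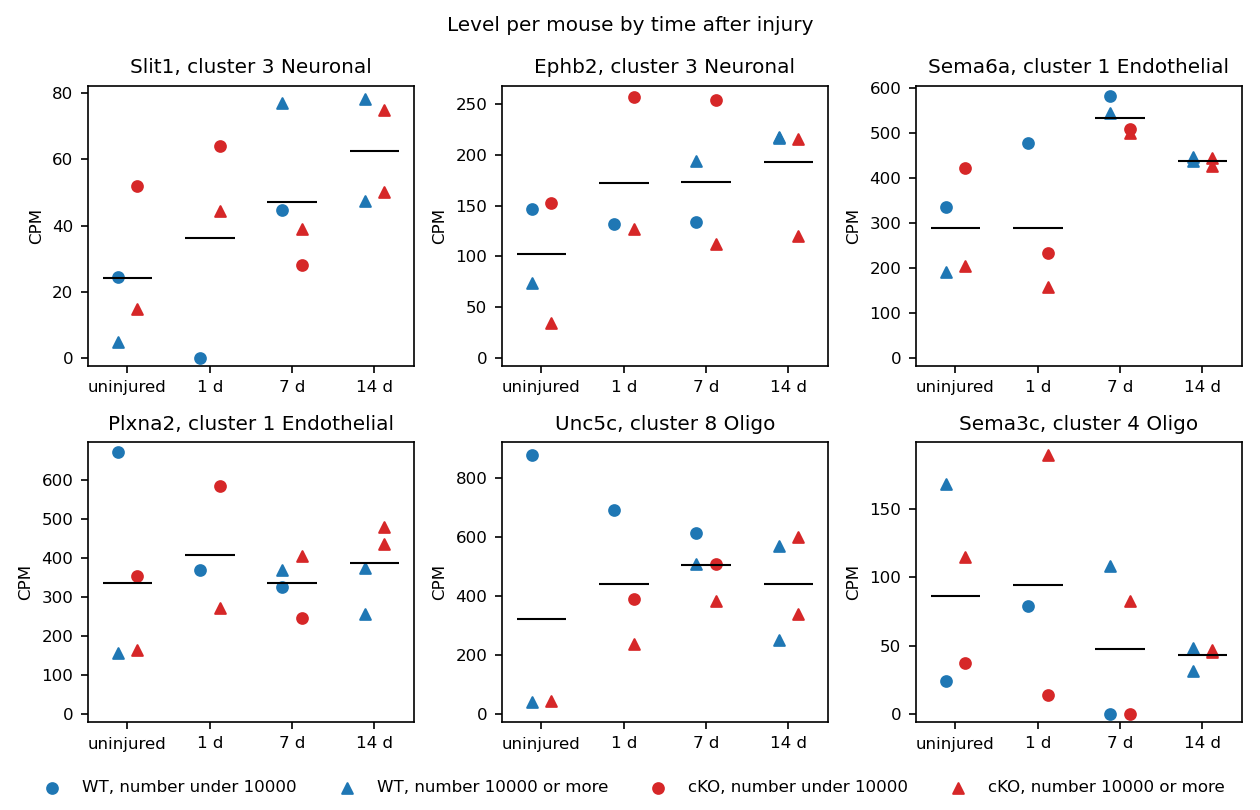
Level per mouse (CPM, linear axes) of 6 gene and cluster pairs by time after injury. Points are mice, coloured by genotype and shaped by animal number series, and the bars are means over the mice of a time point. Unc5c in Cluster 8 has 880.5 CPM in 1 uninjured mouse and about 43 CPM in the other 2, and the Sema6a values at 7 d (500.1 to 583 CPM) lie above all uninjured mice.

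Because the replicate number is the batch in the table of cells, the time points were also compared within each number, in edgeR fits where a lone mouse is assumed to vary like the others. With mice numbered 1 alone, 0 of 94 guidance pairs passed at 1 d (0.582% of all pairs) and at 7 d (0.569% of all), and 4 of 94 passed at 14 d, where 3.08% of all pairs did. These 4 were Sema3c in Cluster 6, which rose over 0 UMIs, and Robo2 in Cluster 5, Sema6d in Cluster 5 and Robo1 in Cluster 11, which fell. All 4 rest on WT uninjured mouse 1 alone, since cKO uninjured mouse 1 had 7, 6 and 8 cells in Clusters 5, 6 and 11. Malat1 in Cluster 5 stood at 21770 CPM in that WT mouse and at 5425 and 3689 CPM in the 14 d mice numbered 1. With mice numbered 2 alone, 5 of 261 pairs passed at 1 d, from 1 mouse, where 1.84% of all pairs did. The 5 were Sema4d in Cluster 11, Unc5c in Cluster 5 and Robo1 in Cluster 1, which rose, and Unc5b and Efnb2 in Cluster 1, which fell. At 7 d 20 of 272 pairs passed (17 higher, 3 lower) where 7.09% of all did, and at 14 d 30 of 272 passed (26 higher, 4 lower) where 8.8% of all did. The member shares, 7.35% and 11%, thus stood near the shares of all pairs.

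In the mice numbered 2, Sema6a rose in Cluster 1 by 1.02 at 7 d and 0.78 at 14 d, and in Cluster 4 by 1.95 and 1.59 (log2 fold changes, edgeR), where the 15 mice gave 0.71 and 0.43, and 0.52 and 0.23, with no call. Sema3c rose in Cluster 1 by 0.72 and 0.70, where the 15 mice gave 0.41 and 0.40 with no call. Slit1 rose in Cluster 3 by 2.22 and 2.64, Ephb2 there by 1.24 and 1.74, and Plxna2 in Cluster 1 by 0.90 and 1.01. In Cluster 8 Unc5c rose by 2.73 and 2.73, and Robo1 by 2.24 and 2.98. The mice numbered 1 gave 0.52 and 0.23 for Sema6a in Cluster 1, -0.41 and -0.51 for Sema6a in Cluster 4, 0.15 and 0.19 for Sema3c, 0.37 and 0.46 for Ephb2, -0.92 and -0.60 for Plxna2, -0.76 and -1.13 for Unc5c in Cluster 8 and -1.06 and -1.52 for Robo1, and none of these passed. Of the pairs called in the mice numbered 2, 16 at 7 d and 22 at 14 d had a value in the mice numbered 1, and 10 and 14 of these had the other sign there. Slit1 in Cluster 3 did not pass the filter on low counts in the mice numbered 1.

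Mice with animal numbers of 10000 or more alone gave 8 of 277 pairs at 7 d, where 2.42% of all pairs passed, and 8 of 277 at 14 d, where 3.7% did. All 16 were also among the calls of the mice numbered 2, which are mostly the same mice. The 1 d calls of the mice numbered 2 were not repeated in this set, which holds the same 1 mouse at 1 d. With the number series as a term, 4 of 167 pairs passed at 14 d (2.98% of all). Slit1 and Ephb2 in Cluster 3 rose and Sema3c in Clusters 3 and 4 fell. Without a filter on low counts, Slit1 in Cluster 3 passed at 14 d as 1 of 695 pairs (0.397% of all).

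The uninjured mice numbered 2, with which these sets were compared, differed from the uninjured mice numbered 1 in depth and in marker genes of other cell types. Their median cells held 1057 and 1040 UMIs, against 2206 to 3637 in the mice numbered 2 at 7 and 14 d. Median cells of the uninjured mice numbered 1 held 2306 and 1998 UMIs. Those of the mice numbered 1 held 414 to 548 UMIs at 1 and 7 d, and 2112 and 2676 UMIs at 14 d. In Cluster 1 the summed level of the 8 oligodendrocyte markers, with Mbp the most abundant, was 7569 and 7395 CPM in the uninjured mice numbered 2 and 984 and 1267 CPM in those numbered 1. It was 944 to 4269 CPM in the injured mice, and all 8 markers had UMIs. The 8 astrocyte markers, led by Slc1a2, summed there to 1924 and 1492 CPM in the uninjured mice numbered 2, to 176 and 276 CPM in those numbered 1 and to 96.7 to 1625 CPM in the injured mice, highest in cKO 1 d mouse 2. In Cluster 3 the 10 neuronal markers summed to 6179 and 3677 CPM in the uninjured mice numbered 2 and to 14020 and 18760 CPM in those numbered 1. In the injured mice they summed to 5807 to 22660 CPM, lowest in cKO 14 d mouse 1. In Cluster 8 Malat1, a nuclear RNA, stood at 10030 and 1642 CPM in the uninjured mice numbered 2, at 54340 CPM in WT uninjured mouse 1 and at 11610 to 49910 CPM in the injured mice. The part of these differences in the guidance values was not tested.

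Without the 2 uninjured mice numbered 2, a fit chosen after seeing the data, 5 clusters could be fitted. In it 0 of 133 guidance pairs passed at 7 d (0.118% of all) and at 14 d (0.382% of all), and 1 of 133 passed at 1 d, Sema3c in Cluster 7, where 0.078% of all pairs did, and both uninjured mice left in that fit had 0 UMIs of it. An unadjusted p under 0.05 was reached by 10.5% of the guidance pairs at 7 d (all pairs 7.13%) and by 12% at 14 d (all pairs 8.48%). Slit1 in Cluster 3 then had a log2 fold change of 1.06 at 14 d (edgeR, adjusted p = 0.319), Ephb2 0.54, and Plxna2 in Cluster 1 -0.33. Cluster 8 was not among the 5, so Unc5c and Robo1 had no value there. Without the 6 mice whose cell names give another condition, also chosen after seeing the data, 0 of 98 pairs in 5 clusters passed at 1, 7 and 14 d, where 0.0443%, 0.0369% and 0.262% of all pairs did, and Slit1 had 0.08 at 7 d and 0.76 at 14 d. Of these 6, WT 1 d mouse 2 was already left out of every fit.

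**Figure D3:**
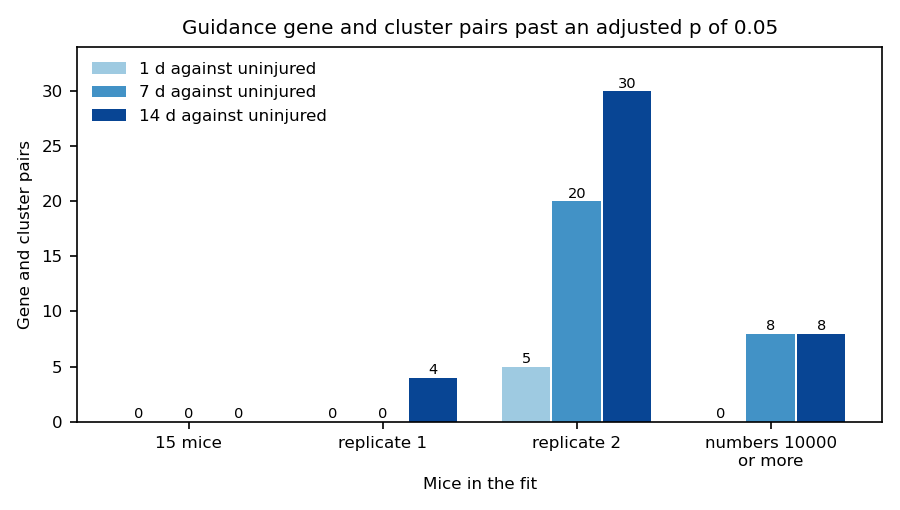
Number of guidance gene and cluster pairs past an adjusted p of 0.05 in edgeR at 1, 7 and 14 d against uninjured mice, for all 15 mice and for 3 sets of mice alone. The 15 mice give 0 at each time. At 7 and 14 d the mice of replicate number 2 give 20 and 30 of 272 pairs, where 7.09% and 8.8% of all pairs passed. Their 1 d count rests on 1 mouse. Those of replicate number 1 give 0, 0 and 4 of 94 pairs, where 0.582%, 0.569% and 3.08% of all pairs passed, and the 4 rest on 1 uninjured mouse.

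Between genotypes after injury, 0 of 199 guidance pairs in 14 clusters passed in edgeR, where 0.00607% of all pairs (4 of 65926) did. An unadjusted p under 0.05 was reached by 1 pair (0.503%, all pairs 2.09%), and DESeq2 called 0 (0.00455% of all). The median log2 fold change of cKO against WT was 0.04 for guidance pairs and 0.02 for all pairs. The fits within a replicate number had a genotype term shared by uninjured and injured mice, so they did not test injured mice alone. In them 0 of 94 pairs passed in the mice numbered 1 (0.0548% of all) and 0 of 272 in those numbered 2 (0.249% of all). With the number series as a term, Ntn4 in Cluster 14 passed, higher in cKO, where 0.118% of all pairs did, and with no filter on low counts Sema3e in Cluster 8 passed, higher in cKO, where 0.0366% did and all 5 injured WT mice with a value had 0 UMIs.

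The pair with the lowest p was Unc5c in fibroblast Cluster 14. The WT mice had 0 CPM at 1 d and 0 CPM at 7 d, where the depth allows up to 551 and 139 CPM, and 13.1 CPM (2 UMIs) at 14 d. The cKO mice had 409 CPM (3 UMIs) and 104 CPM (7 UMIs) at 1 d, 24.1 CPM at 7 d, and 181 and 90.2 CPM at 14 d. All 5 injured cKO mice and 1 of the 3 injured WT mice had UMIs, and the limits of the other 2 WT mice reach into the cKO range. The single uninjured WT mouse had 127 CPM on 3 UMIs, and the log2 fold change was 3.35 ± 1.03 (SE, edgeR, adjusted p = 0.999). Without WT 14 d mouse 1, the only injured WT mouse with UMIs, it was 6.63, a fold over a group at 0 UMIs, and the lowest value over the alternatives was 2.85. Sema6a in pericyte Cluster 9 had 47.7 to 210.3 CPM in injured WT and 23.7 to 217 CPM in injured cKO mice, which overlapped. Plxna2 in Cluster 7 had 0 to 61.7 CPM in injured WT and 0 to 56.1 CPM in injured cKO mice. Cluster 7 is one of astrocytes, the cell type in which the cKO was meant to remove Ryk.

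In uninjured mice, 0 of 111 guidance pairs in 5 clusters differed between genotypes in edgeR, where 0% of all 30706 pairs passed, 7 had an unadjusted p under 0.05 (6.31%, all pairs 3.73%), and DESeq2 called 0 (0% of all). Their median log2 fold change was 0.09, beside -0.01 for all pairs. Unc5b in Cluster 1 was 60.3 and 60.2 CPM in WT and 115 and 114 CPM in cKO, so both cKO mice were higher (log2 fold change 0.95 ± 0.33, edgeR adjusted p = 1.00). Plxna2 in Cluster 9 was 413 and 148 CPM in WT and 64.4 (2 UMIs) and 84.2 CPM (7 UMIs) in cKO. Its log2 fold change was -1.85 ± 0.64, and it ran from -2.77 to -1.02 over the alternatives. Within each replicate number the cKO mouse was higher for Unc5b and lower for Plxna2, and with 1 mouse of each genotype no test within a number was made.

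The change of the genotype difference with injury was tested as a difference of its own. Again 0 of 111 pairs passed in edgeR, where 0% of all pairs did, 7 had an unadjusted p under 0.05 (6.31%, all pairs 3.82%) and DESeq2 called 0 (0.00326% of all). The median log2 change was -0.08 for guidance pairs and 0.03 for all pairs. Sema3g in Cluster 1 had 72.9 and 58.1 CPM in uninjured WT and 223 and 78.0 CPM in uninjured cKO, but 55.9 to 114 CPM in injured WT and 49.5 to 114 CPM in injured cKO mice. The change was -1.29 ± 0.43 on the log2 scale (SE, edgeR, adjusted p = 1.00), and it ran from -2.09 to -0.743 over the alternatives. Ephb1 in Cluster 7 had 0 and 14.5 CPM (2 UMIs) in uninjured WT and 65.2 and 21.4 CPM in uninjured cKO, and 0 to 17.9 CPM in injured WT and 3.33 to 72.1 CPM in injured cKO mice, the highest on 2 UMIs. The change was -3.58 ± 1.47 on few UMIs per mouse, and it ran from -7.96 to -1.38 over the alternatives, the weakest with the 8 conditions as group means. The strongest leaves uninjured WT at 0 UMIs.

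A list of 43 further genes of the same signalling, co-receptors such as Nrp1, Nrp2, Dcc and Neo1 and cytoplasmic partners such as Cfl1 and Srgap2, gave 40 that could be tested. None passed in edgeR with the same design and filter in any of the 6 comparisons. These were 1, 7 and 14 d, the genotypes after injury, the genotypes uninjured and the change between them. In this order 0 of 237, 263, 263, 316, 139 and 139 pairs passed, and the shares of all pairs were those given above. An unadjusted p under 0.05 in edgeR was reached by 13, 20, 24, 7, 4 and 6 of them. These shares were 5.49%, 7.6%, 9.13%, 2.22%, 2.88% and 4.32%, against 6.84%, 8.13%, 9.04%, 2.09%, 3.73% and 3.82% of all pairs. Over all genes and clusters DESeq2 called 179 of 52206 pairs at 1 d and 123 of 56968 at 7 d, and in this list it called 2, both in microglial Cluster 6: Srgap2, a partner of Robo1 that bends membranes, fell at 1 d (-0.86 ± 0.25, adjusted p = 0.0385), and Nrp1, the co-receptor of class 3 semaphorins, rose at 7 d (1.48 ± 0.40, adjusted p = 0.0179). With the number series as a term, edgeR called Cfl1 and Rac1 in Cluster 3 at 7 d (1.18% of all pairs passed), and these and Ablim1 in Cluster 4 at 14 d (2.98% of all), all lower. With no filter on low counts Nrp1 in Cluster 10 passed at 14 d (0.397% of all).

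In the mice numbered 2 alone, 5 of 305 pairs of this further list passed at 1 d (2 higher, 3 lower), 24 of 326 at 7 d (17 higher, 7 lower) and 36 of 326 at 14 d (28 higher, 8 lower) in edgeR. The shares of all pairs were the 1.84%, 7.09% and 8.8% given above. In that set Nrp1 rose in Cluster 6 by 1.58 at 7 d and 1.16 at 14 d, and Cfl1, an actin-severing protein, fell in Cluster 3 (-1.45 and -1.86) and in Cluster 11 (-1.55 and -1.29). The mice numbered 1 gave 1 of 163 pairs at 7 d (0.569% of all pairs) and 5 of 163 at 14 d (3.08% of all). Among these Cfl1 went the other way, rising in Cluster 11 by 2.86 and 2.94 and in Cluster 5 at 14 d by 2.28, again over WT uninjured mouse 1 alone. Animal numbers of 10000 or more gave 9 of 326 at 7 d (2.42% of all) and 8 of 326 at 14 d (3.7% of all). Without WT uninjured mouse 1, where 0.561% of all pairs passed at 7 d and 0.955% at 14 d, 3 pairs passed at 7 d (Dcc and Dpysl5 in Cluster 8 and Nrp1 in Cluster 10) and 2 at 14 d (Dpysl5 and Nrp1 in the same clusters), and without cKO uninjured mouse 1, Cfl1 in Cluster 3 passed at 14 d (0.411% of all).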

How the data were processed

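The count values are UMIs per gene and cell as deposited: the authors aligned 10x 3′ v3.1 libraries, 1 per mouse, to GRCm38 with Cell Ranger and kept them unnormalized. No removal of doublets is stated in the authors' methods, and none was done here. The percent of mitochondrial UMIs per cell is as deposited, and the authors kept cells below their limit (highest value 24.99%). Cluster, condition and batch are labels given by the authors.

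The UMIs of each cell summed to the total in the table of cells for 18203 of 18203 cells. UMIs were summed per mouse and cluster for mice with at least 10 cells there, and the mouse is the replicate. The 15 mice used had a median of 3032957 UMIs. Tests used edgeR 4.0.16 (quasi-likelihood, TMM, filterByExpr by time point) in R 4.3.3 on clusters with at least 8 mice, 2 per arm and 3 residual degrees of freedom, with time, a genotype term for uninjured mice and a genotype term for injured mice in the design. Benjamini-Hochberg adjustment ran over all genes of a cluster and comparison, with 0.05 as the threshold. DESeq2 1.42.0, other sets of mice, other filters and designs, and each mouse left out in turn were the alternatives. The fits were tested on simulated data. Levels and figures used Python 3.11.15.

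The genes named for their levels are the highest 3 of each cluster by ratio to the other clusters, a list of 33 members and the targeted gene. Sema3g, outside both, is named too. It is among the pairs followed over time and genotype, which were chosen after their values were seen. Genes of the further list are named as examples or where called. Members and lists were chosen with earlier results of these data known. The batch column equals the replicate number, so by the labels the number pairs the mice. The main fits had no term for this number, and a fit with it as a block was an alternative. Over 10060 genes of the 7 conditions with both numbers, 12 of 21 correlations between conditions of the difference between numbers were over 0.1, from -0.397 to 0.478. Coordinates are from GENCODE mouse release 21.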

Additional observations from a re-analysis of the deposited data

Results flagged for a closer look

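In 3 of 18 levels examined, 1 mouse lay far from the others, which happens by chance about 1 time in 20 for each level with spread-out values. That rate does not hold for the 2 levels in Cluster 17, where only 1 mouse had a UMI. Ntn5 in Cluster 15 stood at 95.59 CPM in WT 14 d mouse 1 (2 UMIs, next mouse 16.69 CPM, n = 5). In Cluster 17 (n = 4), WT 7 d mouse 1 had 344.1 CPM of Robo4 (3 UMIs) and 114.7 CPM of Sema3e (1 UMI), while the other mice had 0 UMIs of either. The cause was not tested, and these differences rest on 1 to 3 UMIs.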

How the results depend on the processing

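Conditions held 2 mice, and WT at 1 d held 1, and an arm of 1 mouse is assumed to vary like the other groups. All 14 d mice have animal numbers of 10000 or more, so no mouse under 10000 was measured at 14 d. The replicate block changed no call, with 0 members called in each of the 6 comparisons. The count of members called was 0 in the 15 mice and moved as follows. At 1 d it was 5 in mice numbered 2 and 1 without the uninjured mice numbered 2. At 7 d it was 20 in mice numbered 2, 8 in animal numbers of 10000 or more, and 0 to 1 with each mouse left out. At 14 d it was 30 in mice numbered 2, 4 in mice numbered 1, 8 in animal numbers of 10000 or more, 4 with the number series as a term, 1 with no filter on low counts, and 0 to 2 with each mouse left out. Between injured genotypes it was 1 with the number series as a term and 1 with no filter on low counts. These counts come from fits with differing numbers of pairs, and the share of all pairs called moved too. At 7 and 14 d it was 0.0562% and 0.193% in the 15 mice (167 guidance pairs). In mice numbered 2 it was 7.09% and 8.8% (272 guidance pairs). In animal numbers of 10000 or more it was 2.42% and 3.7% (277 guidance pairs). The 1 d calls in mice numbered 2 and the calls in mice numbered 1 rest on 1 mouse in an arm. Of 30 named changes, 12 took the other sign under an alternative, with these log2 fold changes. Sema4g in Cluster 6 at 1 d was 0.141 by the conditions of the cell names, against -3.24 in the fit of all mice, where the 1 d mice held 1 UMI of it. At 7 d Plxna2 in Cluster 1 was 0.037 with the number series as a term, 0.839 in numbers of 10000 or more, 0.896 in mice numbered 2, and -0.351 to 0.453 with each mouse left out. Plxnd1 in Cluster 1 was -0.221 and Unc5c in Cluster 8 was -0.756 in mice numbered 1. Sema6a in Cluster 4 was -0.130 by the cell names, -0.406 in mice numbered 1 and -0.341 without the 6 mice whose cell names differ. Sema3c in Cluster 7 was 2.446 by the cell names, 4.440 without the uninjured mice numbered 2 (a fold over 2 uninjured mice at 0 UMIs), and -2.489 to 1.658 with each mouse left out. At 14 d Plxna2 in Cluster 1 was -0.400 by the cell names, -0.601 in mice numbered 1, -0.489 without the 6 mice, -0.334 without the uninjured mice numbered 2, and -0.179 to 0.622 with each mouse left out. Sema3c in Cluster 3 was 0.551 by the cell names, 0.993 in mice numbered 1, 0.004 with no filter, 0.906 without the 6 mice, 0.672 without the uninjured mice numbered 2, and -0.599 to 0.379 with each mouse left out. Sema3c in Cluster 4 was 0.356 without the 6 mice and 0.604 without the uninjured mice numbered 2. In mice numbered 1 Robo1 in Cluster 8 was -1.519 and Unc5c in Cluster 8 was -1.129. Between injured genotypes Plxna2 in Cluster 7 was 1.379 with the 8 conditions as group means. The cause of these moves was not tested. Of 56 members, 42 kept their leading cluster with at least 30 cells, 54 as means over cells, 47 in numbers of 10000 or more, and 52 to 56 with each mouse left out. No value could be had for some named changes in mice numbered 1 or 2 alone, in numbers of 10000 or more, with at least 30 cells, without the 6 mice or without the uninjured mice numbered 2, nor for Unc5c in Cluster 14 with group means, where too few mice or UMIs were left.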
